A study of Mus musculus with 6 samples.

Results

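Striated muscle is switched on and off by proteins that sit on the actin (thin) filament, and their 9 skeletal genes were followed here in mouse tibialis anterior with and without Dock3. The set is defined by gene symbol and holds skeletal troponin T (Tnnt1, Tnnt3), troponin I (Tnni1, Tnni2), troponin C (Tnnc1, Tnnc2) and tropomyosin (Tpm1, Tpm2, Tpm3). These are 9 of the 54393 genes listed, and all 9 were among the 16031 genes tested. RNA came from the tibialis anterior muscle of adult mice, 3 of genotype WT (replicates 1, 3 and 4, titled C57) and 3 of genotype Dock3 KO (replicates 1, 2 and 3). The Dock3 allele and the sex of the mice are not given in the sources used here. Nothing besides the genotype was said to differ between the groups, and no agent was given. The labels do not say which samples share a litter or a day of processing, so the p-values measure the spread between these 6 samples. Below, the values of single muscles follow the order WT replicates 1, 3 and 4, then Dock3 KO replicates 1, 2 and 3.

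Tropomyosin is a coiled coil that lies along the actin filament and, at rest, covers the sites where myosin binds. Troponin T ties the troponin complex to tropomyosin, troponin I holds the filament in the blocked state, and troponin C binds calcium and releases the block. Fast fibres use Tnnt3, Tnni2 and Tnnc2, whereas slow fibres use Tnnt1, Tnni1 and Tnnc1, the last of which also serves the heart. Tpm1 is the main tropomyosin of fast fibres, Tpm2 is used by fast and slow fibres, and Tpm3 gives the slow-fibre form as well as cytoplasmic forms found in many cells. The tibialis anterior of the mouse is a predominantly fast muscle.

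None of the 9 genes passed the test for a difference between the genotypes. The 3 fast troponins, Tpm1 and Tpm2 were listed between 44432 and 167446 normalized counts in every muscle, and the 3 slow troponins between 24.7 and 102. In the fit over all genes, 165 of 16031 genes (1.03%) had an adjusted p under 0.05, and 0 of the 9 did (limma with Benjamini-Hochberg adjustment), where 0.443% of all genes passed as higher and 0.586% as lower in Dock3 KO. No member had an unadjusted p under 0.05 (0 of 9, against 10.5% of all genes tested), and the smallest limma adjusted p among them was 0.875, for Tnnc1. In none of the 9 were the WT and Dock3 KO values separate (0 of 9, against 16.2% of all genes tested). Their median absolute log2 difference was 0.035 in this fit, against 0.20 over all genes tested, which include genes down to a mean of 10. With other settings the median difference of the 9 moved, as given further below. For 7 of the 9 the 95% interval of the difference lay within a 2-fold change in both directions, and for Tnnt1 and Tnnc1 it did not. Among the 7, the interval of Tnni1 reached past 2-fold in other settings. On the log2 scale it was -1.22 to 0.64 at equal totals and -1.36 to 1.48 with log2 Gm42418 as a covariate. It also passed 2-fold with the replicate block and whenever any 1 sample was left out. A p above the threshold does not show that the levels were equal, so the interval is given for each gene.

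**Figure D1:**
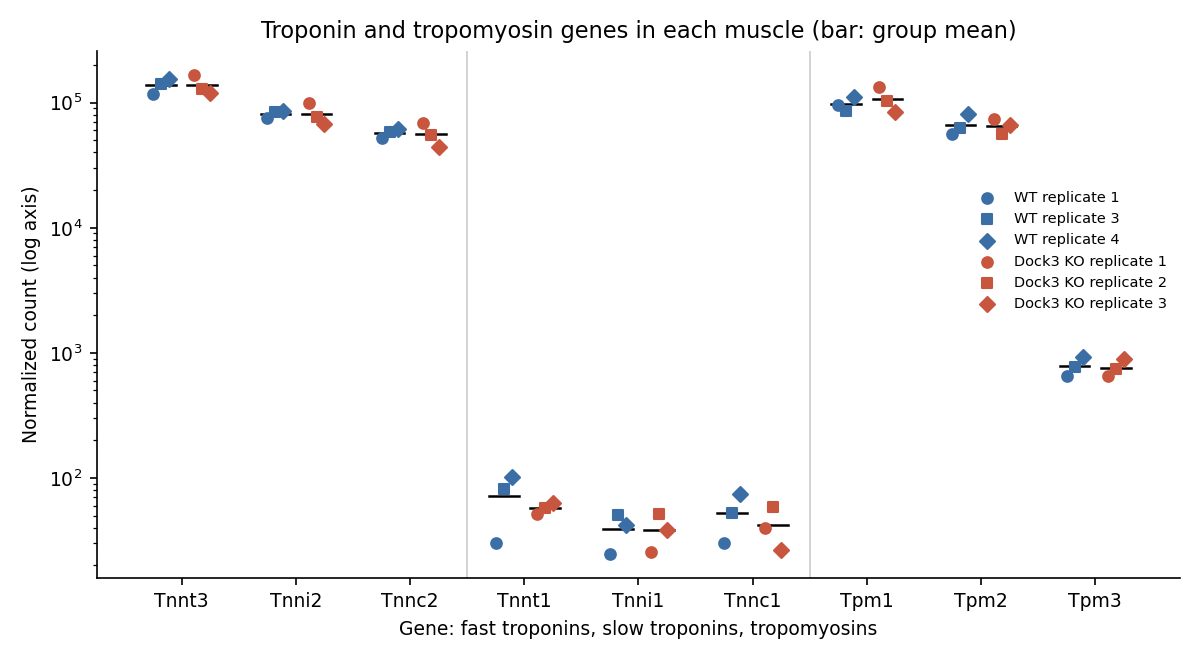
Normalized count (log axis) of the 9 genes in each of the 6 muscles, with WT in blue and Dock3 KO in red; black bars are group means. Fast troponins, Tpm1 and Tpm2 sit at or above 44432 in every muscle, slow troponins at or below 102, and the colours overlap for every gene.

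Before the values, the sequences show how far the slow and fast genes can be told apart by reads, since the slow members are read against a far larger amount of fast message. Over the coding sequences of the longest principal transcripts, identity was 67.2% between Tnnt1 and Tnnt3, 66.9% between Tnni1 and Tnni2, and 70.0% between Tnnc1 and Tnnc2. The 60-base stretch of coding sequence around the longest run shared by each pair is printed below from the GENCODE M21 transcripts (GRCm38), 5′ to 3′ along the message, with the shared run in capitals.
Tnnt1: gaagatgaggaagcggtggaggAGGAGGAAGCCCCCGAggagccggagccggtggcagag
Tnnt3: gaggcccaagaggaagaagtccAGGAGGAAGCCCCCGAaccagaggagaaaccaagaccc
Tnni1: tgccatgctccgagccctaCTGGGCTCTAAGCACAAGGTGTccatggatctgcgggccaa
Tnni2: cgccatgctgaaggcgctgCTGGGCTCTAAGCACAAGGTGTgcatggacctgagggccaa
Tnnc1: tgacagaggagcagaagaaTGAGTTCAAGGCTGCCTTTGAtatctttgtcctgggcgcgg
Tnnc2: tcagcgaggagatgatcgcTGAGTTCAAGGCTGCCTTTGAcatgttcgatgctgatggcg
The shared runs are 16 bases for troponin T, 22 for troponin I and 21 for troponin C. Over all annotated transcripts of each gene, no stretch of 31 bases is shared within any of the 3 slow and fast pairs. The Tnnt1 stretch lies at chr7:4513585-4514216, minus strand, exons 3 to 5 of 14, and that of Tnnt3 at chr7:142504050-142508351, plus strand, exons 4 to 7 of 15. The Tnni1 stretch lies at chr1:135808716-135808775, plus strand, exon 7 of 9, and that of Tnni2 at chr7:142443989-142444048, plus strand, exon 6 of 7. The Tnnc1 stretch lies at chr14:31209813-31210098, plus strand, exons 2 to 3 of 6, and that of Tnnc2 at chr2:164778049-164778196, minus strand, exons 2 to 3 of 6. Where a stretch crosses exons, its genomic span includes the introns between them.

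The tropomyosins are closer to each other, with coding identity of 75.9% between Tpm1 and Tpm2, 76.6% between Tpm1 and Tpm3, and 73.9% between Tpm2 and Tpm3. Tpm1 and Tpm2 share their first 35 coding bases, from the start codon on, printed in the same way because it is the longest shared coding run among the printed pairs.
Tpm1: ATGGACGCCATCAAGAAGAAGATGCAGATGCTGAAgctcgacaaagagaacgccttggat
Tpm2: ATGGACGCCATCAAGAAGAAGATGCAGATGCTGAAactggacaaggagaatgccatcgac
The Tpm1 stretch lies at chr9:67049073-67049132, minus strand, exon 1 of 9, and that of Tpm2 at chr4:43523295-43523354, minus strand, exon 1 of 9. Of all 31-base stretches of their annotated transcripts, 9 are shared, which is 0.13% of those of Tpm1 and 0.30% of those of Tpm2. Tpm3 shares no 31-base stretch with Tpm1 or Tpm2. It does have a near-identical copy, the retrogene Tpm3-rs7 (chromosome 14, 113314608 to 113316754), with 99.1% identity over 2108 aligned bases and 1664 shared 31-base stretches, 26.9% of those of Tpm3 and 78.6% of those of Tpm3-rs7. Tpm3-rs7 had normalized counts of 4.49, 0 and 1.67 in the WT muscles against 1.37, 6.02 and 0.78 in the Dock3 KO muscles, so it held little beside Tpm3 in these files. No copy that met the same limits was found for the other 8 genes.

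In the genome, the troponin genes lie in pairs of an I gene and a T gene, and the pairs do not follow fibre type throughout. The fast genes Tnni2 (chromosome 7, 142441808 to 142444410, plus strand) and Tnnt3 (chromosome 7, 142498836 to 142516009, plus strand) are 54.4 kb apart. Slow Tnnt1 (chromosome 7, 4504570 to 4516382, minus strand) lies 1.92 kb from Tnni3, the cardiac troponin I gene. Slow Tnni1 (chromosome 1, 135779434 to 135810989, plus strand) lies 25.4 kb from Tnnt2, the cardiac troponin T gene. Tnnc1 (chromosome 14, 31208312 to 31211729, plus strand) and Tnnc2 (chromosome 2, 164777161 to 164779967, minus strand) stand on separate chromosomes. Tpm1 is on chromosome 9 (67022590 to 67049406, minus strand), Tpm2 on chromosome 4 (43514711 to 43523765, minus strand) and Tpm3 on chromosome 3 (90072649 to 90100902, plus strand). Of the 9, Tnnc2 alone shares exon bases with another annotated gene: 592 of its 800 exon bases overlap exons of Ube2c on the opposite strand. Ube2c had a mean of 53.0 normalized counts, against 56780 for Tnnc2. Tnnc1 lies inside the span of Nisch and Tnnt3 overlaps the span of Prr33, both on the opposite strand, without shared exon bases in either case.

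Tissue and genotype were checked first on marker genes. The 6 skeletal fibre markers (Ckm, Acta1, Myh4, Mylpf, Atp2a1, Pvalb) summed to between 1535673 and 1739808 normalized counts in every muscle, with none at 0. Dock3 was listed at 118 to 169 in WT and at 1.54 to 22.4 in Dock3 KO, the highest Dock3 KO value being that of replicate 1. The worth of 1 read put the depth at approximately 21654452 to 32457438 reads per sample. Dock3 KO replicates 1 and 2 stood apart, with 17.9% and 20.3% of their sums in Gm42418 and Lars2, against 3.00% to 3.64% in the other 4 samples. All 9 genes were also tested without those 2 libraries, with 1 Dock3 KO muscle left, and none passed (0 of 9, against 49 of 16031 genes).

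The fast troponins made up most of the troponin message. Tnnt3, the subunit that holds the complex on tropomyosin, had normalized counts of 116680, 140915 and 155050 in the WT muscles against 167446, 128183 and 119672 in the Dock3 KO muscles. The Dock3 KO values were both above and within the WT range, and the group means were 137548 ± 19405 (SD, n = 3) for WT against 138434 ± 25484 (SD, n = 3) for Dock3 KO. On the log2 scale the difference was 0.00 with a 95% interval of -0.47 to 0.48 and a limma adjusted p of 0.998.

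Tnni2, the inhibitory subunit of fast fibres, had normalized counts of 75933, 83648 and 85962 in the WT muscles against 100190, 76269 and 67370 in the Dock3 KO muscles. The Dock3 KO muscles held both the highest and the lowest value of the 6, so the WT range (SD 5251, n = 3) lay inside the Dock3 KO range (SD 16973, n = 3). Its log2 difference was -0.03, with a 95% interval of -0.46 to 0.40 and a limma adjusted p of 0.981. Tnnc2, the calcium-binding subunit, had the same order of samples. Its normalized counts were 52529, 58237 and 61071 in the WT muscles against 68992, 55421 and 44432 in the Dock3 KO muscles. The Tnnc2 log2 difference was -0.05, with a 95% interval of -0.47 to 0.38 and a limma adjusted p of 0.968. In the setting reported, then, a change beyond 1.39-fold up or below 0.72-fold of WT lay outside the 95% interval for all 3 fast troponins. Some other settings gave wider intervals. On the log2 scale that of Tnnt3 was -0.69 to 0.98 with the replicate block. With log2 Gm42418 as a covariate it was -0.92 to 0.15 for Tnnc2 and -0.86 to 0.27 for Tnni2.

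The slow troponins were near the lower end of what was tested, and their values were less precise. Tnnt1 had normalized counts of 30.2, 82.1 and 102 in the WT muscles against 51.3, 57.3 and 62.9 in the Dock3 KO muscles. All 3 Dock3 KO values fell between the lowest and the next WT value. The coefficient of variation was 52.0% in WT and 10.1% in Dock3 KO. Its log2 difference was -0.15, with a 95% interval of -1.09 to 0.78 and a limma adjusted p of 0.947. Leaving out WT replicate 1, the muscle with the lowest Tnnt1, moved the difference to -0.68, with a 95% interval of -1.30 to -0.05 and a limma adjusted p of 0.439.

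Tnni1, the slow inhibitory subunit, had normalized counts of 24.7, 50.5 and 42.1 in the WT muscles against 25.7, 51.4 and 38.0 in the Dock3 KO muscles. Each genotype had 1 low muscle, and the ranges were almost the same. The log2 difference of Tnni1 was -0.02, with a 95% interval of -0.90 to 0.86 and a limma adjusted p of 0.995. Tnnc1, the slow and cardiac calcium sensor, had normalized counts of 30.3, 52.2 and 74.7 in the WT muscles against 40.0, 58.6 and 26.3 in the Dock3 KO muscles. The Tnnc1 groups overlapped, and its log2 difference of -0.31 was the largest of the 9, with a 95% interval of -1.23 to 0.62. Without WT replicate 1 it stood at -0.65, and without WT replicate 4 at -0.01. With log2 Gm42418 as a covariate it was -0.90, with a 95% interval of -2.28 to 0.47 and a limma adjusted p of 0.845. Without Dock3 KO replicates 1 and 2 it was -0.88 (limma adjusted p 0.768). By the worth of 1 read in each sample, the slow troponin values rest on approximately 18.3 to 124 reads each, and the 95% interval reached from 0.47-fold to 1.72-fold of WT for Tnnt1, 0.54-fold to 1.81-fold for Tnni1 and 0.42-fold to 1.54-fold for Tnnc1.

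None of the 3 tropomyosins passed either. Tpm1, the main fast form, had normalized counts of 94995, 86015 and 110902 in the WT muscles against 133747, 104133 and 83505 in the Dock3 KO muscles. Dock3 KO held the highest and the lowest of the 6 Tpm1 values, as for Tnni2 and Tnnc2. Its log2 difference was 0.12 with a 95% interval of -0.36 to 0.60 (limma adjusted p 0.914), and it turned to -0.16 when samples were rescaled to the same total and to -0.15 with quantile normalization. Tpm2 had normalized counts of 55790, 62973 and 80825 in the WT muscles against 74154, 55830 and 66483 in the Dock3 KO muscles. Every Dock3 KO value of Tpm2 lay inside the WT range. The log2 difference of Tpm2 was -0.01, with a 95% interval of -0.45 to 0.42 and a limma adjusted p of 0.992.

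Tpm3 had normalized counts of 655, 769 and 922 in the WT muscles against 655, 745 and 886 in the Dock3 KO muscles. The 2 genotypes covered nearly the same range, and the difference was the most tightly bounded of the 9. On the log2 scale it was -0.03 with a 95% interval of -0.42 to 0.35 (limma adjusted p 0.974), and adding Tpm3-rs7 to Tpm3 left it at -0.03. Since Tpm3 messages come from slow fibres and from other cells, and gene-level values do not separate its transcripts, the slow-fibre form was not measured on its own. In whole muscle, fewer cells of a type and less RNA per cell cannot be told apart.

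**Figure D2:**
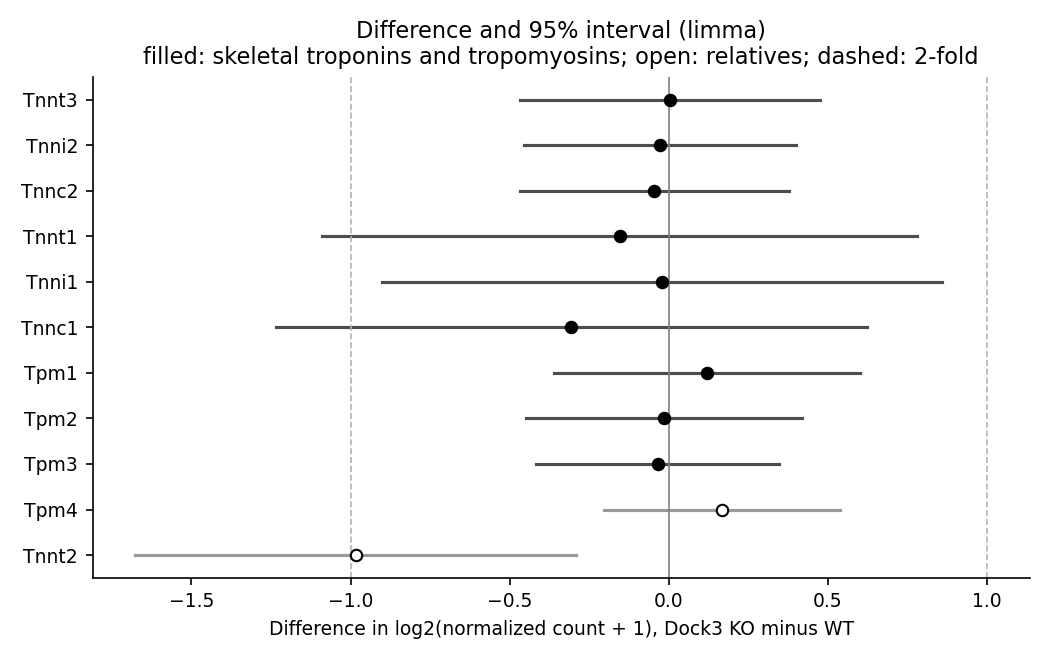
Difference in log2(normalized count + 1) between Dock3 KO and WT, with its 95% interval from limma, for the 9 genes (filled) and for their relatives Tpm4 and Tnnt2 (open); dashed lines mark a 2-fold change. All 9 intervals cross 0, those of the slow troponins are the widest, and only those of Tnnt1 and Tnnc1 among the 9 reach past 2-fold.

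Levels of different genes were compared per kilobase of principal transcript (the main coding transcript that the annotation marks). The means over the 6 muscles, in normalized counts per kilobase, were 157344 ± 23106 for Tnnt3, 108749 ± 14988 for Tnni2 and 81115 ± 11816 for Tnnc2 (SD, n = 6). Tpm1 followed at 53855 ± 9823 and Tpm2 at 31463 ± 4782 per kilobase. In this order Tnnt3, Tnni2 and Tnnc2 each overlapped the next gene over the 6 muscles, whereas Tpm1 and Tpm2 did not overlap. Far below came Tpm3 at 346 ± 50.6 per kilobase, then Tnnc1 at 65.2 ± 25.5, Tnnt1 at 62.7 ± 24.4 and Tnni1 at 36.1 ± 10.9, the last 3 overlapping each other. The order of Tnnc2 against Tnni2, and of Tpm2 against Tpm1, is the other way round when the length of all annotated exons is used. For Tpm1 those exons add up to 6485 bases, against 1898 in its principal transcript. Of the relatives, Tpm4 stood at 420 ± 64.9 per kilobase of principal transcript, overlapping Tpm3, and Tnnt2 at 40.4 ± 15.9, overlapping the slow troponins.

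Expressed as a share of each slow and fast pair, per kilobase of principal transcript, the slow gene held a small fraction of the message in both genotypes. In single muscles Tnnt1 made up 0.022%, 0.050% and 0.056% of troponin T in WT against 0.026%, 0.038% and 0.045% in Dock3 KO. The muscle numbered 1 was the lowest of each genotype, and the groups overlapped. On average Tnnt1 made up 0.043% ± 0.018 of troponin T for WT against 0.036% ± 0.009 for Dock3 KO (SD over 3 muscles each). For troponin I, the share of Tnni1 was 0.023%, 0.042% and 0.034% in the WT muscles, and 0.018%, 0.047% and 0.039% in those of Dock3 KO. Both the lowest and the highest share belonged to Dock3 KO. Its mean was 0.033% ± 0.010 in WT and 0.035% ± 0.015 in Dock3 KO. For troponin C, the share of Tnnc1 was 0.056%, 0.087% and 0.119% in the WT muscles, and 0.056%, 0.103% and 0.058% in those of Dock3 KO. Of the 6 muscles, 3 had a share close to 0.056%, 1 of them WT. Its mean was 0.087% ± 0.031 in WT and 0.072% ± 0.026 in Dock3 KO. The fast gene thus exceeded the slow one by 1773 to 4520 times for troponin T, by 2121 to 5571 times for troponin I and by 842 to 1784 times for troponin C, over the 6 muscles. With the length of all annotated exons these excesses were 2108 to 5375, 3570 to 9377 and 1064 to 2254 times. Among the 3 tropomyosins, Tpm1 held 59.9% to 65.1% of the message per kilobase of principal transcript in the WT muscles, and 57.8% to 67.1% in those of Dock3 KO, where replicate 3 was the lowest. Tpm2 held nearly all the rest, 32.5% to 41.7% in the 6 muscles, and with the length of all annotated exons it held the larger share, 54.3% to 63.7%. Tpm3 made up 0.28% to 0.52% of the 3 tropomyosins per kilobase, a larger share than any slow troponin had of its pair.

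The ratio of 2 genes within a muscle does not depend on how the samples were scaled, so 7 ratios of normalized counts were compared between genotypes. In all 7 the groups overlapped, the exact two-sided permutation p lay between 0.6 and 1, and every adjusted p was 1, where 0.1 is the smallest p that 3 against 3 muscles allow. The log2 ratio of Tnnt1 to Tnnt3 was -11.07 ± 0.73 for WT against -11.23 ± 0.40 for Dock3 KO (SD over 3 muscles each). For Tnni1 to Tnni2 it was -11.09 ± 0.45 in WT and -11.09 ± 0.74 in Dock3 KO, and for Tnnc1 to Tnnc2 -10.19 ± 0.54 and -10.45 ± 0.49. For Tpm3 to Tpm1 it was -6.96 ± 0.19 in WT and -7.12 ± 0.56 in Dock3 KO.

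Ratios among the abundant genes, chosen after the values were seen, varied far less than slow to fast ratios. The count of Tnni2 was 1.45, 1.44 and 1.41 times that of Tnnc2 in WT replicates 1, 3 and 4 and 1.45, 1.38 and 1.52 times in Dock3 KO replicates 1, 2 and 3. The highest of these ratios was 1.10 times the lowest, although each gene alone differed by 1.49 and 1.55 times between its highest and lowest muscle. The count of Tnnt3 was between 1.54 and 1.80 times that of Tnni2, and the count of Tpm1 between 1.26 and 1.87 times that of Tpm2, in the 6 muscles. Slow to fast ratios, by contrast, differed by 2.12 to 2.63 times between the highest and the lowest muscle. The slow troponin values in them rest on approximately 18.3 to 124 reads each. How far counting noise widens these ratios was not tested. The low muscles were WT replicate 1 and Dock3 KO replicate 1 for Tnnt1 to Tnnt3 and for Tnni1 to Tnni2, joined by Dock3 KO replicate 3 for Tnnc1 to Tnnc2.

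**Figure D3:**
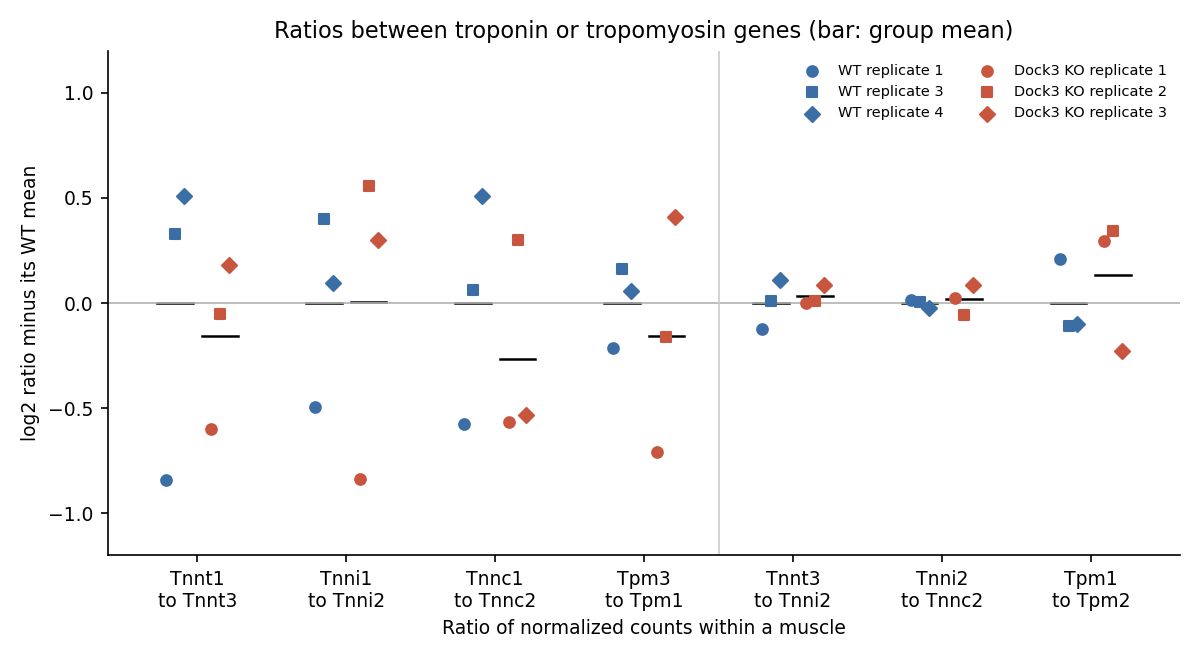
Log2 ratio of normalized counts for 7 pairs of genes in each muscle, set to 0 at the WT mean of each pair; points are muscles and bars group means. Slow to fast ratios (left of the line) spread over about 1 to 1.4 log2 units with both genotypes mixed, while Tnni2 to Tnnc2 stays within 0.14.

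As a share of all normalized counts, the 9 genes took 1.58% to 1.87% in WT and 1.27% to 1.63% in Dock3 KO. The lowest share, that of Dock3 KO replicate 2, was also in the library with the largest share of Gm42418 and Lars2. Dock3 KO replicate 3, with 3.64% in Gm42418 and Lars2, had 1.52%. Dock3 KO replicate 1, with 17.9% in them, had 1.63%. Of the 9 genes, 4 (Tnnt3, Tnni2, Tnnc2 and Tpm1) were highest in Dock3 KO replicate 1, and 4 (Tnni2, Tnnc2, Tnnc1 and Tpm1) lowest in Dock3 KO replicate 3. In WT, likewise, 4 (Tnnt1, Tnnc1, Tpm2 and Tpm3) were highest in replicate 4, and 4 (Tnnt1, Tnnt3, Tnni1 and Tpm2) lowest in replicate 1.

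The relatives of the 9 genes were looked at next. Tnnt2, cardiac troponin T, which is also made by immature muscle, had normalized counts of 57.9, 55.2 and 71.8 in the WT muscles against 39.5, 24.7 and 29.0 in the Dock3 KO muscles. All Dock3 KO values of Tnnt2 lay below all WT values. The log2 difference of Tnnt2 was -0.98 with a 95% interval of -1.68 to -0.29, but its limma adjusted p was 0.254, so it did not pass. Tpm4, a tropomyosin of the cytoplasm of many cell types, was at 846 ± 165 for WT against 943 ± 116 for Dock3 KO (SD over 3 muscles each; limma adjusted p 0.807). Tnni3, cardiac troponin I, was below the level set for testing, at 0 to 21.7 normalized counts.

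The thin filament around these genes was covered by a list of 13 genes for actin, nebulin, filament capping proteins and their partners, of which 0 passed (against 1.03% of all genes tested). The groups did not overlap for 5 of the 13, where 16.2% of all genes tested had such groups. Their median log2 difference was 0.03 (range -1.36 to 0.43), against -0.01 over all genes tested. Acta1, skeletal actin, was at 349877 ± 23480 normalized counts for WT against 311062 ± 35085 for Dock3 KO, and Neb, the nebulin ruler of the thin filament, at 122258 ± 44454 against 159591 ± 51556 (SD, n = 3). Nrap, a protein of the ends of the myofibrils, was at 12110 ± 1072 in WT and 15780 ± 1834 in Dock3 KO, with separate groups and a limma adjusted p of 0.350.

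Other genes of fibre type did not pass either. Among 11 other genes listed as slow fibre genes, 0 passed (median log2 difference 0.20, range -0.06 to 0.83). Among 11 others listed as fast fibre genes, 0 passed (median 0.05, range -0.30 to 0.55). Over all genes tested 1.03% passed, so 0 on lists this short is close to that share. The 3 most abundant of the slow list, Mybpc1, Actn2 and Atp2a2, had log2 differences of 0.14, 0.20 and 0.33. Their means were 37191, 7643 and 833 normalized counts, against 100 for Myh7 and 64.4 for Tnnt1. They were therefore not read as a measure of slow fibres in this muscle. The 3 most abundant of the fast list, Myh4, Atp2a1 and Pvalb, had log2 differences of 0.19, 0.07 and -0.14. Myh7, slow myosin heavy chain, named after its values were seen, had normalized counts of 16.3, 69.7 and 83.2 in the WT muscles against 18.4, 323 and 91.0 in the Dock3 KO muscles. The muscle with the highest Myh7, Dock3 KO replicate 2, had Tnnt1 at 57.3, within the range of the other 5 muscles, and the highest Tnni1, at 51.4 against 50.5 in WT replicate 3. Myh7 was lowest in WT replicate 1 and Dock3 KO replicate 1, the same 2 muscles that were lowest for Tnni1.

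Of 3 developmental sarcomere genes, Myh3, Myh8 and Myl4, which mark embryonic, perinatal and regenerating fibres, 0 passed, with log2 differences of -0.54, 0.13 and 0.48. Of 16 regulators of fibre type 0 passed (median 0.04, range -0.54 to 0.40). Both counts of 0 stand beside 1.03% of all genes tested. The most abundant, Mef2c, Tead1 and Mef2a, which encode transcription factors that act on muscle genes, had log2 differences of 0.26, 0.04 and 0.08.

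**Figure D4:**
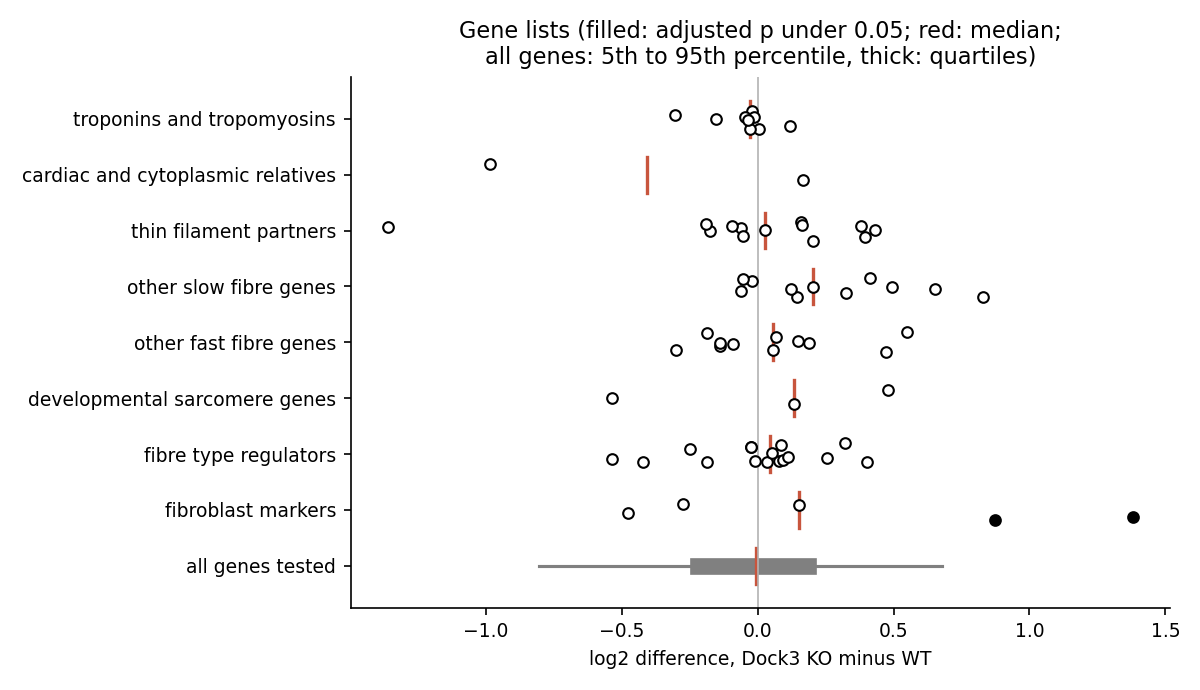
Log2 difference (Dock3 KO minus WT) of each tested gene on 8 lists, with the list median in red and filled points for an adjusted p under 0.05; the lowest line gives the middle 90% of all genes tested. The 9 troponins and tropomyosins lie between -0.31 and 0.12, inside the range from -0.81 to 0.68 of all genes, and filled points occur for the fibroblast list only, among the lists drawn.

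Markers of other cells were read beside these values, because Tpm1, Tpm2 and Tpm3 are also used outside muscle fibres. Smooth muscle markers (7 genes) summed to 7368 normalized counts in WT replicate 3 and to between 2883 and 3409 in the other 5 muscles. In WT replicate 3, Tpm1 was the second lowest and Tpm2 the third lowest of the 6 values. Satellite cell markers (4 genes) summed to 610 to 688 in WT and to 522 to 579 in Dock3 KO. Fibroblast markers (5 genes) summed to 27466 to 29000 in WT and to 30381 to 36416 in Dock3 KO, and 2 of the 5 rose (against 0.443% of all genes tested): Col1a1 by 1.38 and Col3a1 by 0.87 on the log2 scale (limma adjusted p 0.0228 and 0.0168). The other 3 did not pass, with log2 differences of 0.15 for Pdgfra, -0.28 for Dcn and -0.48 for Lum. Col1a1 and Col3a1 stayed above 0 in all 19 alternatives, Col1a1 past the threshold in 12 and Col3a1 in 10. Both missed it without any 1 of the 3 Dock3 KO muscles and without Dock3 KO replicates 1 and 2. They also missed it when rescaled to the same total, with the Gm42418 covariate and with a prior variance without trend. Col3a1 also missed it without WT replicate 4 and with the replicate block. Erythrocyte markers were highest in Dock3 KO replicate 1, at 97653 against 28542 to 54916 elsewhere. Sums of endothelial (4511 to 5736), macrophage (1574 to 2471), adipocyte (188 to 1122) and Schwann cell markers (724 to 1104) were small beside those of fibre markers. On each of these lists 0 of 5 genes passed the threshold, and none was at 0 in every muscle. Macrophage sums were 2200 to 2471 in WT and 1574 to 2148 in Dock3 KO, whereas the endothelial, adipocyte and Schwann cell sums overlapped between genotypes. No sum was tested. No gene of the smooth muscle, satellite or erythrocyte lists passed. For all these lists the share over all genes tested is 1.03%. The part of these cells in the troponin and tropomyosin values was not tested.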

How the data were processed

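Ribosomal RNA was removed from total muscle RNA, and paired-end reads came from a strand-marking library kit, per the labels' protocols. The authors deposited 1 table of normalized counts, a signal per gene with 6 sample columns, all used. Trim Galore 0.4.5, Salmon 0.12.0, DESeq2 1.22.1 and R 3.5.3, and the builds mm10 and GRCm38, are named in the submitters' processing notes. How the table was scaled, and whether strand was used, is not given in the sources used here. A scaling factor moves all genes of a sample together.

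All 54393 identifiers were found in GENCODE M21 (GRCm38). Values were taken as log2(normalized count + 1), a scale that understates the change of low genes, for genes with a mean of at least 10. Genotypes were compared with limma 3.58.1 in R 4.3.3 (trended prior variance, no covariate), and p-values were adjusted by Benjamini-Hochberg over all 16031 genes, with a threshold of 0.05. Within-muscle ratios were tested by exact permutation (scipy 1.17.1). On simulated data, 187 of 188 genes changed 4-fold were called among 16024 genes, with 10 false calls. The simulation gave every gene the same dispersion and had no differences between libraries, so it does not measure recovery in these muscles. Recovery of smaller changes was not tested. Recovery at the spread of the slow troponins was not tested separately. In WT their coefficients of variation were 52.0% (Tnnt1), 42.3% (Tnnc1) and 33.7% (Tnni1). The worth of 1 read was taken as the most frequent value under 5. Only 24.5% to 35.9% of such values were whole multiples of it (tolerance 0.01), so no test on whole reads was run. Copies were sought with blastn 2.17.0 (at least 95% identity over 50% of the shorter transcript and 100 bases). Coding sequences were aligned with Biopython 1.88.

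The 9 genes and 15 other lists were chosen with earlier results of these data known. Named genes are the 9, list genes past the threshold or otherwise the 3 most abundant of a list, and, as a description, the 5 genes most correlated with the slow and with the fast troponins. Alternatives were other pseudocounts, filters, scalings and prior variances, a Gm42418 covariate, a replicate block, copies added, and each sample left out.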

Additional observations from a re-analysis of the deposited data

How the results depend on the processing

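In all 19 alternatives the number of the 9 genes past the threshold was 0, and the smallest limma adjusted p of any of them was 0.387, against 0.875 in the setting reported. The sign of the differences changed in 38 of 169 pairs of gene and alternative. The median log2 difference of the 9 was -0.03 in the setting reported. It was -0.19 with the Gm42418 covariate, -0.15 with quantile normalization and 0.10 with the replicate block, which rests on the muscles numbered 1 and 3. In these settings the median of all genes lay between -0.01 and 0.01. Rescaling to the same total moved the median of all genes to -0.28, and gave -0.27 for Tnnt3 and -0.16 for Tpm1; relative to that median they were 0.01 and 0.12. Quantile normalization gave -0.29 for Tnnt3, 0.053 for Tnni1 and -0.15 for Tpm1. Log2 Gm42418 as a covariate gave 0.084 for Tnnt1, -0.19 for Tnnt3, 0.058 for Tnni1, -0.25 for Tpm1, 0.042 for Tpm2 and 0.23 for Tpm3, and the larger values of -0.90 for Tnnc1, -0.38 for Tnnc2 and -0.29 for Tnni2 without a change of sign. Leaving out Dock3 KO replicates 1 and 2, an alternative chosen after seeing the data that leaves 1 Dock3 KO muscle assumed to vary like WT, gave -0.19 for Tnnt3, 0.018 for Tnni1, -0.21 for Tpm1, 0.016 for Tpm2 and 0.19 for Tpm3. In the same setting Tnnc1 was at -0.88, Tnnc2 at -0.36, Tnni2 at -0.28 and Tnnt1 at -0.01. It also gave log2 ratio differences of 0.18 for Tnnt1 to Tnnt3, 0.30 for Tnni1 to Tnni2, -0.53 for Tnnc1 to Tnnc2 and 0.41 for Tpm3 to Tpm1, as values with no test.

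With the replicate block the differences were 0.18 for Tnnt1, 0.044 for Tnni2, 0.0015 for Tnnc2, 0.24 for Tpm2 and 0.10 for Tpm3, and 127 genes passed. Number 2 occurs only in Dock3 KO and number 4 only in WT. The block therefore takes up those samples, and its differences rest on the muscles numbered 1 and 3 alone. Samples with the same number in both genotypes (1 and 3) come from different mice, and the correlation of their deviations was 0.065 for number 1 and 0.0066 for number 3 across genes; they share only a number.

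Leaving out 1 sample at a time gave -0.68 to 0.19 for Tnnt1, -0.14 to 0.10 for Tnnt3, -0.31 to 0.23 for Tnni1, -0.19 to 0.10 for Tnni2, -0.65 to -0.01 for Tnnc1, -0.20 to 0.11 for Tnnc2, -0.053 to 0.29 for Tpm1, -0.13 to 0.13 for Tpm2 and -0.16 to 0.091 for Tpm3. The log2 ratio differences ranged from -0.58 to 0.10 for Tnnt1 to Tnnt3, -0.27 to 0.43 for Tnni1 to Tnni2, -0.55 to -0.01 for Tnnc1 to Tnnc2 and -0.44 to 0.12 for Tpm3 to Tpm1. The count over all genes, 165, ranged from 98 (without WT replicate 4) to 159, and was 100 without Dock3 KO replicate 2. It was 104 with a prior variance without trend, 57 with the Gm42418 covariate and 49 without Dock3 KO replicates 1 and 2. The cause was not tested. At equal totals 177 genes passed, of which 23.2% were higher in Dock3 KO, against 43.0% of the 165. A count test (edgeR), planned only if the deposited values were counts, had no whole reads to work on and was left out. A minimum mean of 50 left out Tnni1 and Tnnc1, which then have no value.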

Other observations

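Groups did not overlap for 5 of 13 thin filament genes, 1 of 11 other slow fibre genes, 2 of 11 other fast fibre genes and 1 of 16 regulators, against 16.2% of all genes tested, and 0 of these genes passed the test. The genes below were named after their values were seen. Actc1, cardiac actin, which skeletal muscle also makes during development, had normalized counts of 1313, 548 and 1168 in the WT muscles against 287, 461 and 372 in the Dock3 KO muscles. Its log2 difference was -1.36 with a 95% interval of -2.05 to -0.67 and a limma adjusted p of 0.0939. Over 19 alternatives the Actc1 difference lay between -1.75 and -1.12 and passed in 3 of them: no filter on low values, rescaling to the same total, and without WT replicate 3. Tnnt2, cardiac troponin T, had differences between -1.25 and -0.72 over 18 alternatives and passed in 0 of them.

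Myod1, a transcription factor that starts the muscle programme, had normalized counts of 516, 717 and 707 in the WT muscles against 401, 461 and 462 in the Dock3 KO muscles (log2 difference -0.54, limma adjusted p 0.249). Casq1, the calcium store protein of fast fibres, was at 37958 ± 742 for WT against 30920 ± 3382 for Dock3 KO (SD over 3 muscles each; limma adjusted p 0.511). Ankrd2, a stretch-responsive protein found mostly in slow fibres, was at 211 ± 46.1 and 330 ± 51.7 (limma adjusted p 0.271). Myod1, Casq1 and Ankrd2 passed in 0 of 19 alternatives each.

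As a description of these 6 muscles, the genes whose log2 values were most like the mean of the slow troponins, out of 16022 compared, were Hyls1, Dnajc7, Irf3, Poglut1 and Mcm9. Those most like the mean of the fast troponins were Gstm5, Art1, Gtf2h5, Lage3 and Sh3bp5. Pearson's r was 0.986 to 0.992 for the slow profile and 0.986 to 0.994 for the fast one, over 6 muscles and with no test. All genes of a muscle share its library and its scaling.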
